A study of Mus musculus with 3 samples.

Results

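A group of 8 genes of zinc handling was followed through the single-cell RNA profile of the mouse epididymis, where sperm leaving the testis become able to swim and fertilise. They are the metallothionein genes Mt1 and Mt2, the zinc exporter genes Slc30a1 and Slc30a5, and the zinc importer genes Slc39a1, Slc39a4, Slc39a8 and Slc39a14. They were chosen by name as a biological group, and all 8 were among the 24335 genes of the count matrix. The tissue came from untreated wild-type mice of the C57BL/6 strain (C57Bl/6J in the series design) aged 56 days. It was cut into caput (the part nearest the testis), corpus (the middle) and cauda (the far end, which stores sperm). Each region gave 1 library, of 4961 caput, 4959 corpus and 4925 cauda cells, and the sources used here do not say how many animals stand behind a library. With 1 library a region there was no replicate and no test. Intervals are exact 95% intervals for counting error alone, and region and library cannot be told apart.

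Cells hold zinc at very low free concentrations. Proteins of the SLC39 (ZIP) family carry zinc into the cytoplasm, from outside the cell or out of vesicles, and proteins of the SLC30 (ZnT) family carry it the other way. Metallothioneins are small cysteine-rich proteins that bind zinc and copper, and their genes are induced by zinc through the transcription factor MTF1, and also by glucocorticoids, oxidative stress and inflammation. In the male tract zinc is known for stabilising sperm chromatin and the outer dense fibres of the tail, and part of it is removed from sperm during passage through the epididymis.

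Mt1 and Mt2 lie next to each other on chromosome 8. In the GENCODE M21 annotation of GRCm38, Mt2 spans chr8:94172664-94173568 and Mt1 spans chr8:94179082-94180327, both on the plus strand, with 5513 bases between the end of Mt2 and the start of Mt1. The other members lie at chr1:191906767-191913247 (Slc30a1, plus strand), chr13:100802648-100833427 (Slc30a5, minus), chr3:90248172-90253612 (Slc39a1, plus), chr15:76612383-76617384 (Slc39a4, minus), chr3:135825279-135888572 (Slc39a8, plus) and chr14:70303469-70351425 (Slc39a14, minus). MTF1 acts through metal response elements, whose core was searched as TGCACNC and TGCGCNC on both strands of the RefSeq promoter windows of GRCm38.p6, which are 300 bases long and end 50 bases into the transcript. The promoters of Mt1, Mt2 and Slc30a1 are shown because these are the members best known as MTF1 targets. They are written 5′ to 3′ on the plus strand, with each match to either core in capitals.
Mt1, chr8:94178839-94179138: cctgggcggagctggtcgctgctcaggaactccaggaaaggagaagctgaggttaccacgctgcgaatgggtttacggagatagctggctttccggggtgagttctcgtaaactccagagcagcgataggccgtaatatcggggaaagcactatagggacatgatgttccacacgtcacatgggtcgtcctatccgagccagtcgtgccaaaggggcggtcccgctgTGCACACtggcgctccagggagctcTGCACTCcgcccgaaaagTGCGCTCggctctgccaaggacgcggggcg
Mt2, chr8:94172368-94172667: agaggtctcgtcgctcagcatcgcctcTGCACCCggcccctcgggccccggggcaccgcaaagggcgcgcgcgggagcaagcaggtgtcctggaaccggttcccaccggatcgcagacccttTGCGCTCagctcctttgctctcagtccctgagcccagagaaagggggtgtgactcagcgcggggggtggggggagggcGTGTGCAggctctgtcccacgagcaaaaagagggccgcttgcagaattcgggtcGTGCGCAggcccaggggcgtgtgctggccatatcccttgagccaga
Slc30a1, chr1:191906531-191906830: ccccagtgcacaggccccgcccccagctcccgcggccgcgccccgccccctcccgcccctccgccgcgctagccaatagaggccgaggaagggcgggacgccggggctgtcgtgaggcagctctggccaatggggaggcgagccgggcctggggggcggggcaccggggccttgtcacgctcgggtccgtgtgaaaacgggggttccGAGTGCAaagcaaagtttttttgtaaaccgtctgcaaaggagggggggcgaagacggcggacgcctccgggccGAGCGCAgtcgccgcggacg

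The Mt2 window held 4 matches, the Mt1 window 3 and the Slc30a1 window 2. Of all 32851 promoter windows of this length, 25.7% held at least 1 match, 7.11% at least 2, 1.97% at least 3 and 0.517% at least 4. The window of Slc30a5 held 1 match, that of Slc39a1 none, and the 2 windows of Slc39a8 held 1 and none. In the Mt1 window the matches began 23 bases before and 3 and 21 bases into the RefSeq transcript, which starts at position 94179089. GENCODE places the starts of the other Mt1 transcripts at 94179211 and 94179241, downstream of all 3 matches, and the start codon at 94179311. In the Mt2 window the matches began 223, 128 and 50 bases before and 5 bases into the RefSeq transcript, which starts at position 94172618. GENCODE places the starts of the Mt2 transcripts at 94172664 and 94172860, downstream of all 4 matches. A match is a run of letters and was not examined for binding.

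Cells were gated into classes by marker lists. Among cells with at least 200 detected genes, the gate gave 2634 caput, 2492 corpus and 576 cauda principal cells, the secretory epithelium that lines the duct. It gave 555, 370 and 109 clear cells, the proton-pumping cells of the epithelium, and 352, 146 and 62 basal cells, which sit beneath it. It gave 160, 481 and 2308 stromal cells and 92, 218 and 469 macrophages. The 10 leading genes of each gated class held 1 to 7 markers of its own class and none of any other. Because cells were gated on these markers, this is no separate check of the gate. Levels are given as CPM, the summed unique molecular identifiers (UMIs) of a gene per 1000000 UMIs of the same cells, and are compared between cells and not between genes. A ratio of levels was called past the fold rule where it was at least 2 either way, its interval excluded 1 and at least 50 UMIs were counted in both groups together. The total was 41500792 UMIs in caput, 21495211 in corpus and 18341476 in cauda, and the libraries shared 14 to 21 cell barcodes a pair. Median mitochondrial share in principal cells was 4.72% in caput, 16.3% in corpus and 15.2% in cauda. Cells gated on haemoglobin, which should lack most of these transcripts, serve as a measure of free RNA and are called erythroid below. The measure is rough. In caput these cells had a median principal marker score of 0.582, between 0.490 in macrophages and 0.882 in principal cells. The erythroid markers themselves summed to 1020 to 7128 CPM in the 5 classes, and the haemoglobin UMIs of erythroid cells count in their totals.

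Of the 5 classes, clear and basal cells had the highest Mt1. An Mt1 UMI was seen in 87.5% to 100% of principal, clear and basal cells of each region, and in 70.8% to 74.0% of erythroid cells. In clear cells it reached 3561 CPM in caput, 5002 CPM in corpus and 7151 CPM in cauda, against 1524, 2111 and 1809 CPM in principal cells of the same regions. In basal cells it was at 5065 CPM in caput, 5739 CPM in corpus and 3720 CPM in cauda. Clear cells thus stood above principal cells by 2.34-fold (2.28 to 2.39), 2.37-fold (2.31 to 2.43) and 3.95-fold (3.82 to 4.10), and basal cells by 3.32-fold (3.26 to 3.38), 2.72-fold (2.64 to 2.80) and 2.06-fold (1.95 to 2.17), all past the fold rule. The corpus clear call ended at 1.98 with clusters in place of the gate. The cauda basal call ended at 1.85 with clusters, at 1.955 without cells over 20% mitochondrial UMIs and at 1.91 with mitochondrial genes left out of the total. Basal cells were the highest of the 5 classes in caput and corpus, and clear cells in cauda, with no overlap of intervals. Stromal Mt1 was at 1095, 2668 and 2445 CPM and macrophage Mt1 at 1341, 2533 and 3072 CPM, neither past the rule against principal cells in any region. In erythroid cells Mt1 was at 831, 1051 and 983 CPM. With plain totals this lay below all 5 classes in each region, with no overlap of intervals. Endothelial cells of the caput were lower still, at 521 CPM. At a fixed depth of 1000 UMIs a cell, an Mt1 UMI was seen in 98.0% of caput basal cells, 86.8% of caput clear cells and 68.8% of caput principal cells, against 45.0% of caput erythroid cells.

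These ratios depend on the total to which Mt1 is scaled. Scaling by TMM factors, which set aside the genes with the most extreme ratios, shifted the log2 ratio of every gene by -0.61, -0.58 and -0.65 for clear over principal cells and by -0.57, -0.59 and -0.62 for basal over principal cells. The Mt1 ratio was then 1.53, 1.59 and 2.52 for clear cells and 2.24, 1.81 and 1.34 for basal cells, so that it stayed above 1 in all 6 cases and past the fold rule in cauda clear cells and caput basal cells. Erythroid cells had TMM factors of 0.544, 0.446 and 0.397, below every gated class, where principal cells had 0.766, 0.800 and 0.832. Such factors raise the erythroid level relative to each class. All comparisons with erythroid cells are on plain totals, and their order can change with TMM factors. For Mt1 it does change. Caput erythroid cells then stand above caput stromal cells and macrophages, and cauda erythroid cells above cauda principal cells. Genes of the immediate early and heat shock response can be induced while tissue is digested. Together they were higher in clear, basal and stromal cells and macrophages than in principal cells. Their summed level was 19608, 11120 and 13501 CPM in clear cells, 23679, 21131 and 19701 CPM in basal cells, 17166, 18783 and 22365 CPM in stromal cells and 24305, 21506 and 26872 CPM in macrophages, against 6328, 5336 and 6252 CPM in principal cells. Genes of the glucocorticoid response summed to 4106, 2552 and 2480 CPM in clear cells and 3670, 2704 and 3275 CPM in basal cells, against 903, 889 and 937 CPM in principal cells. They summed to 3127, 3881 and 4006 CPM in stromal cells and 4722, 4909 and 5459 CPM in macrophages. Oxidative stress genes summed to 823, 864 and 827 CPM in clear cells and 1450, 1970 and 1217 CPM in basal cells. In stromal cells they had 501, 525 and 438 CPM, in macrophages 638, 925 and 976 CPM and in principal cells 680, 738 and 490 CPM. In each region macrophages had more of the immediate early and glucocorticoid lists than basal cells, less of the oxidative stress list and less Mt1. The part of these responses in the Mt1 level was not tested.

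**Figure D1:**
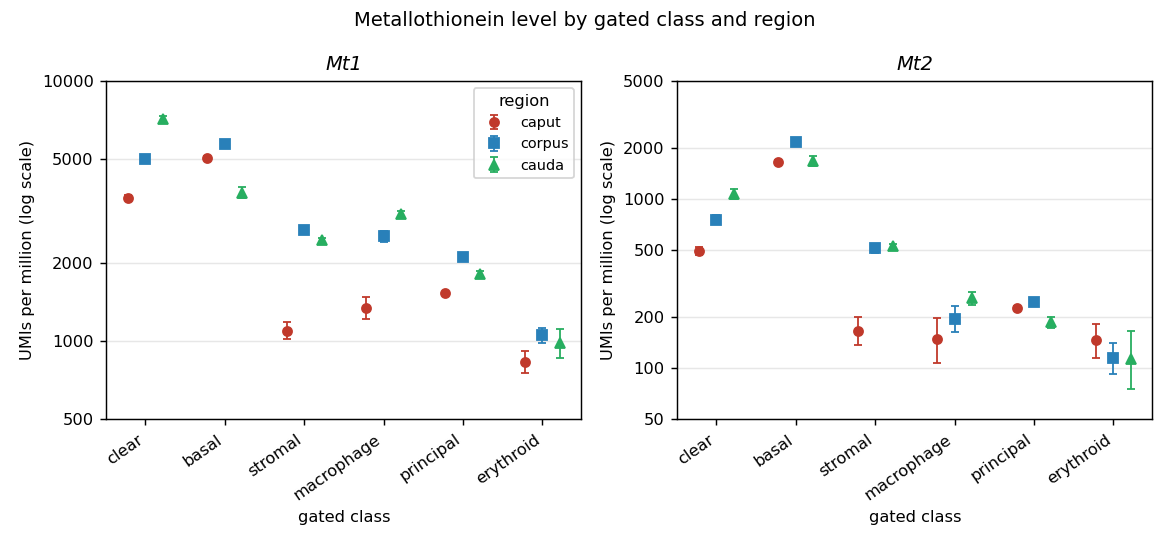
Level of Mt1 (left) and Mt2 (right) in CPM on a log scale, for each gated class and, as a measure of free RNA, erythroid cells. Points are the summed level of 1 library with its exact Poisson 95% interval, and red circles, blue squares and green triangles are caput, corpus and cauda. Basal cells stand highest for Mt2 in all 3 regions, with 1666, 2194 and 1685 CPM.

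Of the 5 classes, basal cells had the highest Mt2 in each region. Its level was 1666 CPM in caput, 2194 CPM in corpus and 1685 CPM in cauda basal cells, against 227, 246 and 188 CPM in principal cells. The ratio was 7.35 (7.09 to 7.63), 8.93 (8.43 to 9.46) and 8.97 (8.07 to 9.96), and with TMM factors it was 4.96, 5.94 and 5.83, past the fold rule either way. Clear cells came next among the 5 classes with 492, 756 and 1069 CPM, which is 2.17-fold (2.04 to 2.31), 3.08-fold (2.87 to 3.30) and 5.69-fold (5.14 to 6.30) the principal level, and 1.42, 2.06 and 3.63 with TMM factors. Stromal Mt2 was at 167 CPM in caput, 511 CPM in corpus and 526 CPM in cauda. It passed the rule over principal cells in corpus (2.08, 1.93 to 2.24) and cauda (2.80, 2.58 to 3.04), although the corpus ratio was 1.78 with TMM factors, 1.77 with clusters in place of the gate, and 1.90 both without cells of high mitochondrial share and with mitochondrial genes left out of the total. Macrophage Mt2 was at 149, 197 and 259 CPM. In caput, stromal and macrophage Mt2 overlapped the erythroid level of 146 CPM (115 to 183), so that Mt2 there could not be told from free RNA.

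The balance between the neighbouring genes differed between classes. Mt2 made up 24.8% (24.2 to 25.3), 27.7% (26.6 to 28.7) and 31.2% (29.3 to 33.1) of the Mt1 and Mt2 UMIs in basal cells of caput, corpus and cauda, against 12.9% (12.6 to 13.2), 10.4% (10.1 to 10.8) and 9.41% (8.75 to 10.1) in principal cells. This share uses no scaling factor. In clear cells it was 12.1%, 13.1% and 13.0%, in stromal cells 13.2%, 16.1% and 17.7%, and in macrophages 9.98%, 7.21% and 7.79%. The 3 basal values were above all 12 others. In caput, basal cells gave 34.1% of all Mt2 UMIs and 19.7% of all Mt1 UMIs of the library, from 7.75% of its UMIs. Mt1 and Mt2 are paralogues, and the sources used here do not say how reads that match both were counted.

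**Figure D2:**
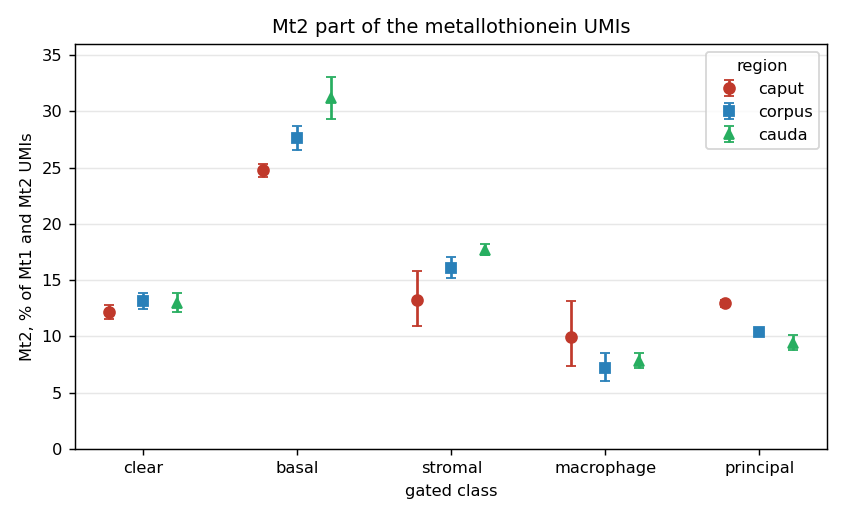
Mt2 UMIs as a percentage of the Mt1 and Mt2 UMIs of each gated class in caput (red circles), corpus (blue squares) and cauda (green triangles), with exact binomial 95% intervals. Basal cells lie at 24.8% to 31.2% and the other 4 classes at 7.21% to 17.7%.

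Between regions the metallothioneins moved differently from class to class. In clear cells both were lower in caput than in cauda, at 3561 against 7151 CPM for Mt1 (ratio 0.498, 0.482 to 0.515) and at 492 against 1069 CPM for Mt2 (ratio 0.460, 0.421 to 0.503), with corpus in between. Both are close to the limit of the rule and both calls ended with TMM factors, at 0.556 and 0.514. The Mt1 call also ended at 0.515 with the looser gate, 0.515 after thinning and 0.504 without the 1% of cells that held most Mt1 UMIs. Among clear cells with 5 to 20% mitochondrial UMIs, Mt1 was at 3627, 5651 and 7356 CPM. In stromal cells both were lower in caput than in either other region, by 0.410 (0.379 to 0.444) for Mt1 and 0.326 (0.265 to 0.399) for Mt2 against corpus, and by 0.448 (0.414 to 0.483) and 0.317 (0.259 to 0.385) against cauda, while corpus over cauda was 1.09 and 0.972. Among stromal cells with under 5% mitochondrial UMIs, Mt1 was at 1065, 3293 and 2577 CPM, so that caput was lowest there too. In macrophages Mt1 was lower in caput than in cauda (0.437, 0.393 to 0.483), and Mt2 was not past the rule (0.573, 0.411 to 0.781), though it passed at 0.499 with the stricter gate, 0.486 with TMM factors and 0.494 without the top 1% of cells. In basal cells neither gene passed the rule between any regions, the widest difference being Mt1 in corpus over cauda at 1.54 (1.46 to 1.63).

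In principal cells Mt1 stayed within the fold rule between regions, at 1524 CPM in caput, 2111 CPM in corpus and 1809 CPM in cauda. The caput over corpus ratio was 0.722 (0.711 to 0.733). Mt1 was lower in cells with a high mitochondrial share, which the regions hold in unequal number. Among cells with under 5% mitochondrial UMIs it was at 1470 CPM in caput, 2381 CPM in corpus and 2058 CPM in cauda. Among cells with 5 to 20% it was at 1697, 2279 and 1890 CPM, and above 20% at 856, 1436 and 1296 CPM, so that the order of the 3 regions was the same in each range. Mt2 in principal cells was at 227, 246 and 188 CPM, with no ratio past the rule. Cells of 1 class varied widely. Per 10000 UMIs of a cell, the median Mt1 was 45.9 in caput basal cells with quartiles of 32.7 and 60.6, and 12.5 in caput principal cells with quartiles of 7.44 and 20.1.

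Slc39a4 encodes ZIP4, the importer that takes up zinc in the gut and is mutated in acrodermatitis enteropathica, an inherited zinc deficiency of humans. Of the 5 classes it was highest in basal cells. It was at 97.1 CPM (86.6 to 108) in caput, 48.0 CPM (34.6 to 64.9) in corpus and 20.9 CPM (9.54 to 39.6) in cauda basal cells, against 7.77, 2.20 and 1.36 CPM in principal cells. The basal over principal ratio was 12.5 (10.5 to 14.9) in caput and 21.9 (13.2 to 36.9) in corpus, and 8.44 and 14.5 with TMM factors. Without the 1% of cells that held most Slc39a4 UMIs the corpus ratio was 168 on too few UMIs for the rule, and after thinning it was 14 on too few. Cauda had 9 and 5 UMIs, too few for the rule, and its basal interval overlapped that of erythroid cells, which had none, allowing up to 12.2 CPM. A Slc39a4 UMI was seen in 45.7% of caput basal cells (median 6873.5 UMIs) and in 0.621% of caput erythroid cells (median 2661 UMIs). At 1000 UMIs a cell these shares were 11.4% and 0. No UMI was counted in the 370 corpus or the 109 cauda clear cells, which at a floor of 3 counts allows up to 2.03 and 3.80 CPM, and stromal cells and macrophages were at 1.36 to 3.38 CPM in all regions. In caput basal cells gave 312 of 720 Slc39a4 UMIs, 43.3% (39.7 to 47.0).

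Slc39a4 was higher in caput than further along the duct in basal and in principal cells. In basal cells the caput level was 2.02-fold (1.46 to 2.86) the corpus level and 4.65-fold (2.42 to 10.3) the cauda level, and corpus was 2.30-fold (1.10 to 5.38) cauda. The first of these lies at the limit of the rule, with 1.92 to 1.99 under 5 other settings, and the last rests on 42 and 9 UMIs and ended with the stricter gate at 2.02, after thinning at 2.33 and without the top 1% of cells at 2.56. In principal cells caput was 3.54-fold (2.36 to 5.49) corpus and 5.73-fold (2.42 to 17.8) cauda, a call that ended after thinning at 7.0. The level in caput principal cells overlapped that of erythroid cells (3.90 CPM, 0.472 to 14.1, 2 UMIs), so that the part of free RNA in it was not tested.

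Slc39a8 encodes ZIP8, an importer of zinc, manganese and cadmium, which in mice makes the testis of sensitive strains open to cadmium damage. It was at 14.8 CPM (13.4 to 16.3) in caput and 24.1 CPM (21.4 to 26.98) in corpus principal cells, and at 1.08 CPM (0.296 to 2.78) in cauda principal cells, where 4 UMIs were counted in 576 cells. Caput was 13.6-fold (5.28 to 50.2) and corpus 22.2-fold (8.58 to 82.0) the cauda level. Caput over corpus was 0.613 (0.527 to 0.715), and 0.483 and past the rule without the 1% of cells that held most Slc39a8 UMIs. Corpus basal cells had 2.29 CPM, stromal cells 8.63 CPM and macrophages 7.45 CPM. All of these were lower than corpus principal cells, by ratios of 0.0949 (0.0114 to 0.346), 0.359 (0.202 to 0.592) and 0.309 (0.0997 to 0.730), and the basal and macrophage calls ended after thinning. Corpus erythroid cells had 6.39 CPM (2.08 to 14.9), with plain totals below corpus principal cells and overlapping the other 3. Clear cells had 20.6, 16.2 and 11.4 CPM in caput, corpus and cauda and did not pass the rule against principal cells in caput and corpus, while cauda had too few UMIs. The corpus clear ratio of 0.674 did pass as lower at 0.451 with TMM factors and 0.460 with clusters in place of the gate. In caput 7 UMIs gave erythroid cells 13.7 CPM (5.49 to 28.1), so that the caput averages could not be told from free RNA by this measure, while the principal cells themselves split as follows.

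Within caput principal cells Slc39a8 was concentrated in 1 cluster. Clusters were formed on all genes of the 3 libraries together, and this cluster was singled out after its values were seen, so that its level is a description. The 319 principal cells of cluster 2, among whose leading genes is the ribonuclease A family gene Rnase9, had 89.9 CPM (80.9 to 99.7), and the other 4 clusters of the caput classed as principal had 0.996 to 3.11 CPM. The 51 to 64 principal-gated caput cells in each of clusters 7, 9 and 10, which belong to other classes, had 2.94 to 14.1 CPM. Cluster 2 gave 360 of the 405 Slc39a8 UMIs of caput principal cells, 88.9%. A UMI was seen in 37.3% of its cells and in 1.90% of the other 2315, with medians of 8705 and 6838 UMIs a cell. In corpus the level was 44.3 CPM in cluster 15, which is led by Spint4, and 14.5 to 25.8 CPM in clusters 22, 30 and 32, of which cluster 30 is led by haemoglobin genes. In cauda it was 1.18 CPM in cluster 27. The zinc exporter gene Slc30a2 was also higher in cluster 2, at 122.9 CPM against 40.0 CPM in the other caput principal cells, and Mt2 stood at 384 against 200 CPM, while Slc39a4 stood at 5.24 against 8.20 CPM and Slc39a1 at 15.2 against 15.4 CPM.

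**Figure D3:**
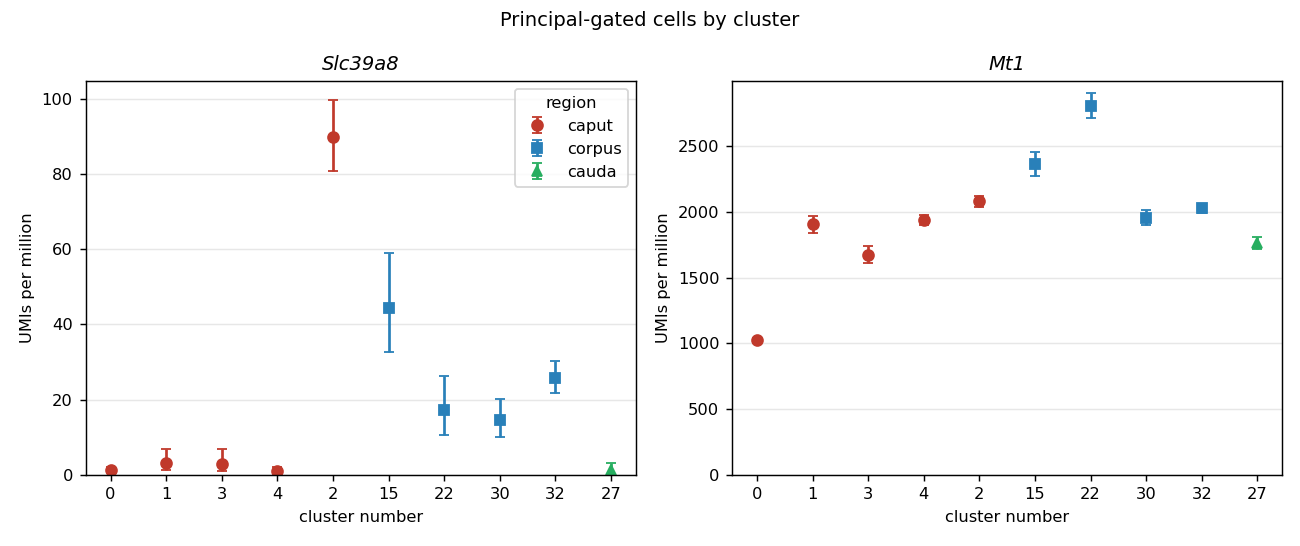
Slc39a8 (left) and Mt1 (right) in principal-gated cells of each larger cluster, in CPM with exact Poisson 95% intervals. Red circles are caput, blue squares corpus and green triangles cauda, and the axis gives the cluster number. Slc39a8 is at 89.9 CPM in cluster 2 and at 44.3 CPM in cluster 15, while Mt1 lies between 1022 and 2806 CPM throughout.

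Slc39a1 encodes ZIP1, an importer of the plasma membrane found in most tissues. It was higher in stromal and basal cells than in principal cells. Stromal cells had 37.8, 55.6 and 54.8 CPM in caput, corpus and cauda and basal cells 35.5, 34.3 and 44.0 CPM, against 15.4, 16.7 and 16.3 CPM in principal cells. The stromal ratio was 2.46 (1.56 to 3.72), 3.33 (2.60 to 4.24) and 3.37 (2.56 to 4.49), and the basal ratio was 2.31 (1.86 to 2.85), 2.06 (1.35 to 3.03) and 2.71 (1.525 to 4.598). With TMM factors the stromal ratios were 1.87, 2.85 and 3.08 and the basal ratios 1.56, 1.37 and 1.76, so that the basal calls and the caput stromal call ended. These 4 calls also ended after thinning, and the corpus basal call ended at 1.83 with clusters in place of the gate and at 1.90 with mitochondrial genes left out of the total. Clear cells had 10.3, 15.6 and 25.3 CPM. In macrophages Slc39a1 was at 16.9 CPM (5.48 to 39.4) in caput, 32.8 CPM in corpus and 53.0 CPM in cauda. The cauda macrophage level was 3.26-fold (2.35 to 4.57) the cauda principal level, and caput macrophages were lower than cauda macrophages (0.318, 0.101 to 0.768), on 5 and 101 UMIs, a call that ended after thinning. Erythroid cells had 1.95, 3.84 and 4.08 CPM on 1, 3 and 1 UMIs. In principal cells the interval of each ratio between regions included 1.

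Slc39a14 encodes ZIP14, an importer of zinc, iron and manganese that in the liver is induced by inflammation. It was the sparsest member, with 351 UMIs in all. Caput basal cells had 11.5 CPM (8.11 to 15.9), against 2.52 CPM (1.96 to 3.18) in caput principal cells, a ratio of 4.58 (2.98 to 6.92). Stromal cells had 4.73, 11.3 and 7.91 CPM, which was 2.21-fold (1.28 to 3.67) the principal level in corpus and 7.29-fold (2.699 to 27.6) in cauda. The corpus ratio was 1.89 with TMM factors and 1.83 with clusters in place of the gate, and both calls ended after thinning (2.1 and 7.5) and without the top 1% of cells (3.27 and 4.75). Erythroid cells had 0, 1 and 3 UMIs, which was 1.28 CPM (0.0324 to 7.12) in corpus and 12.2 CPM (2.53 to 35.8) in cauda, so that the stromal intervals of both regions overlapped the measure of free RNA. In principal cells caput was lower than corpus, with 2.52 against 5.12 CPM (0.491, 0.344 to 0.702), and corpus was 4.72-fold (1.76 to 17.9) cauda, where 4 UMIs were counted. The caput over corpus ratio was 0.518 with the stricter gate, 0.513 with TMM factors and 0.582 without the 1% of cells that held most UMIs of the gene, and the call ended in each case. The corpus over cauda ratio was 2.87 without those cells and 4.5 after thinning, and that call ended in both.

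Slc30a1 encodes ZnT1, the exporter of the plasma membrane, whose gene is induced by zinc through MTF1. In principal cells it was at 6.64 CPM (5.71 to 7.67) in caput, 4.15 CPM (3.09 to 5.45) in corpus and 5.69 CPM (3.53 to 8.71) in cauda, with no ratio between regions past the rule. Caput over corpus was 1.60 (1.17 to 2.23), and 2.695 without the 1% of cells that held most Slc30a1 UMIs. Cauda macrophages had 22.6 CPM (16.3 to 30.4), 3.97-fold (2.30 to 7.04) the cauda principal level and 3.32-fold with TMM factors. Without the top 1% of cells it was 4.05-fold on too few UMIs for the rule. Caput basal cells had 13.1 CPM (9.42 to 17.7), 1.97-fold (1.37 to 2.77) the caput principal level, just short of the rule, which it passed at 2.01 with at least 500 detected genes and again at 2.01 without the top 1% of cells. Clear cells had 9.09, 6.09 and 16.5 CPM and stromal cells 4.73, 4.32 and 7.77 CPM. Caput clear cells, with 2.34-fold the Mt1 of caput principal cells, had 1.37-fold (0.847 to 2.12) the Slc30a1. Erythroid cells had 0 to 3.90 CPM on 3 UMIs in all regions together, with a caput interval (0.472 to 14.1) that overlapped those of the 5 caput classes.

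Slc30a5 encodes ZnT5, which with ZnT6 loads zinc into the early secretory pathway for enzymes such as alkaline phosphatase. Stromal cells had the highest value in corpus and cauda, with intervals that overlapped those of basal cells in both and of macrophages in corpus. Principal cells had 19.7 CPM (18.1 to 21.5) in caput, 12.9 CPM (10.9 to 15.0) in corpus and 16.8 CPM (12.9 to 21.6) in cauda. Stromal cells had 31.5, 30.8 and 36.7 CPM, past the rule over principal cells in corpus (2.39, 1.74 to 3.26) and cauda (2.18, 1.65 to 2.92) and not in caput (1.60, 0.968 to 2.49). The cauda call ended at 2.00 with TMM factors, 1.98 with the stricter gate and 1.96 with clusters in place of the gate. Caput macrophages, with 40.5 CPM on 12 UMIs, were 2.05-fold (1.06 to 3.62) caput principal cells, a call that ended under 5 other settings. Basal cells had 21.5, 24.0 and 20.9 CPM and clear cells 13.8, 14.9 and 7.60 CPM, none past the rule. With TMM factors clear cells passed as lower in caput (0.460) and cauda (0.288), and corpus basal cells passed as higher at 2.105 without the top 1% of cells. Erythroid cells had 7.80 CPM (2.13 to 19.98), 3.84 CPM (0.791 to 11.2) and 8.16 CPM (0.988 to 29.5).

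**Figure D4:**
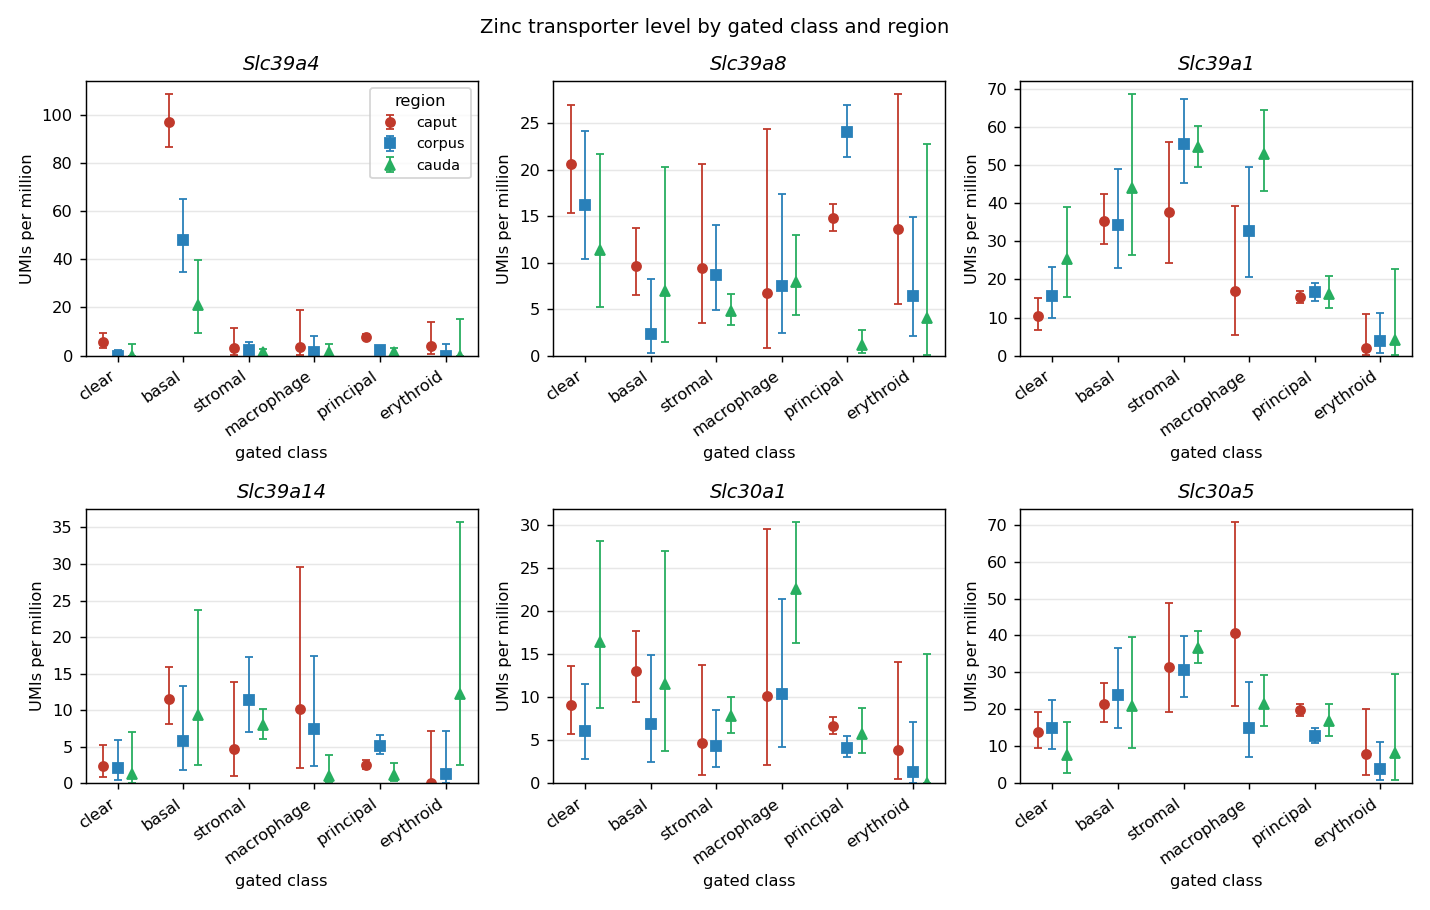
Level of the 6 zinc transporter genes in CPM by gated class, with erythroid cells as a measure of free RNA. Points are the summed level of 1 library with its exact Poisson 95% interval, and red circles, blue squares and green triangles are caput, corpus and cauda. Among the classes shown, Slc39a4 stands out in basal cells, at 97.1, 48.0 and 20.9 CPM.

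Summed over the 3 regions, basal cells had the most calls against principal cells, 13, and stromal cells had 10. In basal over principal cells 5 of 8 tested members passed the rule in caput (all higher), 5 of 8 in corpus (4 higher and Slc39a8 lower) and 3 of 4 in cauda (all higher), where the rule was passed by 31.7%, 30.3% and 36.1% of all genes tested. In clear over principal cells Mt1 and Mt2 passed in each region, 2 of 8, 2 of 7 and 2 of 4 tested members, against 30.1%, 34.2% and 38% of all genes. In stromal over principal cells 1 of 8, 5 of 7 and 4 of 6 passed, against 25.9%, 38.5% and 43.5%. In macrophages over principal cells 1 of 8, 1 of 7 and 2 of 5 passed, against 22.4%, 33.5% and 46.7%. Over all 12 such comparisons 30 of 80 tested ratios were higher and 3 were lower, and those 3 were Slc39a8 in corpus. With TMM factors 17 were higher and 11 lower. Over all genes 25126 of 121900 tested ratios were higher and 15651 lower with plain totals. TMM factors lowered the ratio of every gene in these comparisons, and calls over all genes were not counted with them. In clear cells, summed over regions, the count was 6 higher and none lower with plain totals, and 3 higher and 6 lower with TMM factors. In basal cells it was 12 higher and 1 lower, and 7 higher and 2 lower with TMM factors. In stromal cells it was 9 and 1, and 5 and 1 with TMM factors, and in macrophages 3 and 1, and 2 and 2 with TMM factors. A member entered a count only where it had 50 UMIs, and in the smallest comparisons between regions only Mt1 and Mt2 did.

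Between regions 8 of 73 tested ratios were higher and 9 lower. With TMM factors the counts were also 8 and 9, after 3 calls ended and 3 others were added. In principal cells 2 of 8 members passed in caput over corpus (Slc39a4 higher, Slc39a14 lower), 2 of 8 in caput over cauda (Slc39a4 and Slc39a8 higher) and 2 of 7 in corpus over cauda (Slc39a8 and Slc39a14 higher), against 28.5%, 34.5% and 16.5% of all genes. In clear cells 0 of 4, 2 of 3 and 0 of 2 passed in the same order of comparisons, against 7.54%, 15% and 6.87%. In basal cells Slc39a4 passed in each, 1 of 5, 1 of 5 and 1 of 3, against 6.96%, 12.8% and 5.55%. In stromal cells 2 of 4, 2 of 6 and 0 of 7 passed, against 9.88%, 13.4% and 6.76%, and in macrophages 0 of 2, 2 of 4 and 0 of 5, against 14.5%, 20.9% and 6.99%. The comparisons share libraries and so are not independent of each other.

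**Figure D5:**
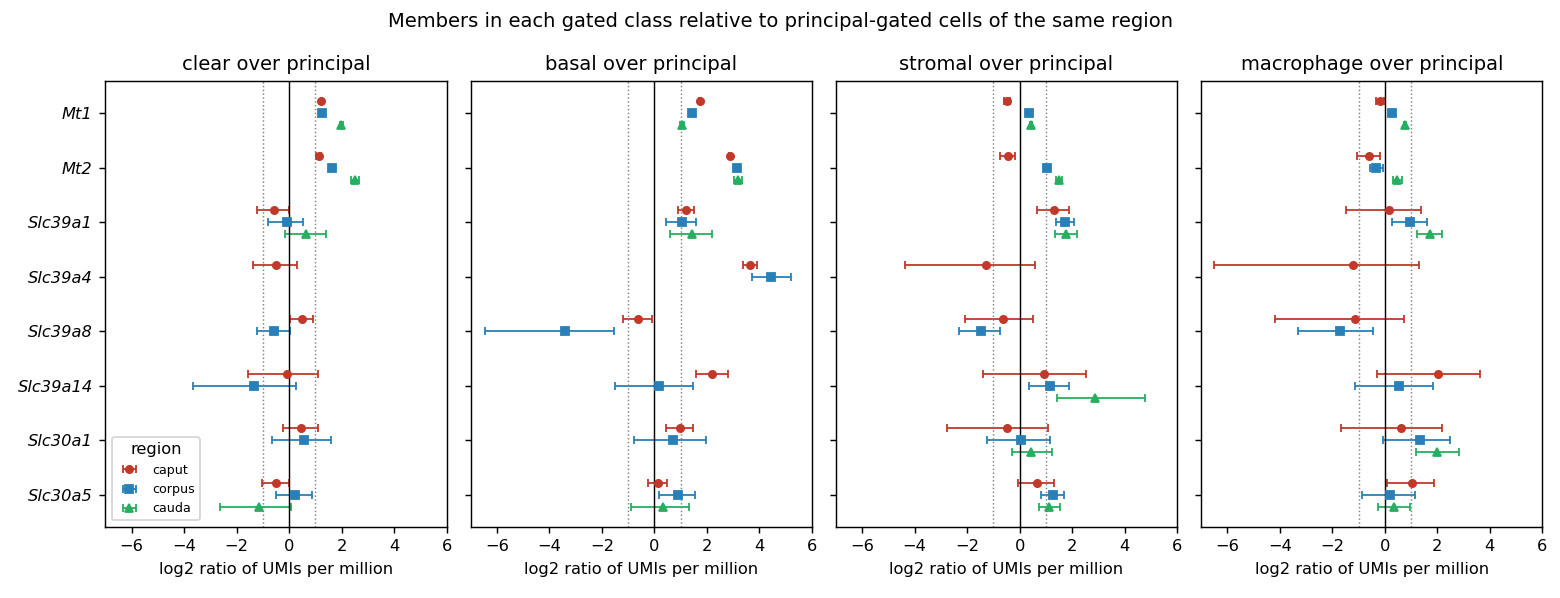
Members in clear, basal, stromal and macrophage cells relative to principal cells of the same region, as the log2 ratio of CPM with its exact 95% interval. Positive values are higher in the named class, dotted lines mark a ratio of 2 either way, and members with fewer than 50 UMIs in both groups are left out. Mt1 and Mt2 lie to the right in the clear and basal panels, and Slc39a4 lies at 12.5-fold and 21.9-fold in basal cells of caput and corpus.

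Other genes of zinc transport were looked at by list. Of the other exporter genes, 6 of 8 listed were in the matrix, and over the 12 comparisons with principal cells 6 of 64 tested ratios were higher and 11 lower, and 2 and 20 with TMM factors. Over all genes 25126 of 121900 tested ratios were higher and 15651 lower in these comparisons with plain totals. TMM factors lowered the ratio of every gene there, and calls over all genes were not counted with them. Slc30a2, which encodes the vesicular exporter ZnT2, was higher in clear than in principal cells of caput (106 against 52.1 CPM) and corpus (89.96 against 27.9 CPM) and lower in macrophages in all regions. Slc30a2 was also higher in basal than in principal cells of corpus (2.33) and lower in stromal cells of corpus (0.329) and cauda (0.188). With TMM factors the clear ratios were 1.33 and 2.16 and the corpus basal ratio was 1.55, so that the caput clear and corpus basal calls ended. The macrophage and stromal calls stayed, and caput stromal cells passed as lower at 0.437. Slc30a9, with 63.4 CPM in cauda clear and 26.8 CPM in cauda principal cells, was 2.36-fold (1.64 to 3.35) higher there, a call that ended at 1.504 with TMM factors. Of the other importer genes, 9 of 10 listed were in the matrix, and 9 of 64 ratios were higher and 6 lower, and 6 and 15 with TMM factors. Slc39a10, the importer ZIP10, was at 129, 131 and 127 CPM in basal cells and at 80.7, 21.4 and 29.3 CPM in principal cells, higher in basal cells of corpus (6.14, 4.89 to 7.68) and cauda (4.35, 3.09 to 6.08). In principal cells Slc39a10 was also higher in caput than in corpus (3.77, 3.32 to 4.30) and cauda (2.76, 2.27 to 3.38). Slc39a13, the importer ZIP13 whose loss affects connective tissue, was at 94.5, 65.8 and 88.7 CPM in stromal cells, against 28.9, 15.5 and 19.0 CPM in principal cells, with ratios of 3.27 (2.47 to 4.26), 4.26 (3.36 to 5.37) and 4.68 (3.65 to 6.07).

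Between regions 6 of 52 tested ratios of the other exporters were higher and 3 lower, and 4 of 50 of the other importers were higher and none lower, where 5.55% to 34.5% of all genes tested passed in the single comparisons. With TMM factors the exporters had 4 higher and none lower, and the importers 4 and none. Mtf1, the zinc sensor, was at 23.7 CPM in clear and 9.70 CPM in principal cells of the caput (2.45, 1.82 to 3.25), a call that ended at 1.60 with TMM factors, and no other Mtf1 ratio between a class and principal cells passed the rule. The metallothionein gene Mt3, best known from brain, was at 13.6 CPM in caput principal cells (372 UMIs), with 2 UMIs in corpus and 1 UMI in cauda principal cells. Caput erythroid cells had 9.75 CPM (3.17 to 22.8), so that this level could not be told from free RNA, and ciliated cells of the caput had 673 CPM. Mt4, known from stratified epithelium, had 4 UMIs in all.

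Across the 15 groups of class and region, the levels of Mt1 and Mt2 went together (Pearson r = 0.86 of log2(CPM + 10)), and Mt2 and Slc39a4 had r = 0.66. The groups share 3 libraries and differ in depth, so that these values are descriptions. Among 9829 genes with at least 500 UMIs, those most like Mt2 were Tnfaip1, Ephx1 and Ptk7 (r = 0.95, 0.95 and 0.93) and those most like Mt1 were Gtf3c2, Camsap1 and Irs2 (0.92, 0.91 and 0.90). Slc39a4 was most like Krt17, which is a marker of the basal gate, Qrfp and Dclk3 (0.97, 0.97 and 0.96). Slc39a8 was most like Med28, Mta3 and Pcbd1 (0.83, 0.78 and 0.76), and Slc39a1 most like Pqlc3, C3 and Igfbp4 (0.91, 0.90 and 0.89). Slc30a1 was most like Tyk2, Tgfbrap1 and Cept1 (0.88, 0.88 and 0.87), and Slc30a5 most like Fzd7, Usp1 and RP23-110C17.2 (0.91, 0.90 and 0.88). Slc39a14 was left out for its low count. With a pseudocount of 1 in place of 10 CPM none of the 3 genes named for Slc39a4 stayed, and 1 of 3 stayed for Slc30a1 and for Slc39a8. At 100 CPM 1 of 3 stayed for Slc39a1. In the other cases 2 or 3 of 3 stayed.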

How the data were processed

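The deposited matrix holds UMI counts per gene and cell, one matrix for the 3 libraries with the region in each cell's name; all values are whole and the largest is 3993. Tissue was digested and red blood cells were lysed before capture with a Singleron kit, per the labels' protocols. Reads were aligned with STAR 2.7.3a to GRCm38.p6 and UMIs were counted with UMI-tools, per the submitters' processing notes, and the sources used here do not say how cells were called. The members, gene lists, markers and tests were chosen with earlier results of these data known.

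A minimum of 200 detected genes a cell removed 22 cells of caput, 128 of corpus and 140 of cauda, doublets were neither called nor removed, and no cell was left out for its mitochondrial share. A cell's class score was the mean log of its UMIs per 10000 over the class's markers, divided by the 99.5th percentile over all cells. A class other than principal was called at a score of at least 0.33, at least 1.5 times the next such class and no lower than the principal score. Principal cells needed at least 0.33 and 1.5 times every other class. Smooth muscle, endothelial, T or NK, dendritic or monocyte, erythroid, germ and ciliated scores counted from 0.6 and barred a principal call. The marker lists came first and these thresholds were set after the scores had been seen. The neutrophil list was not used in the gate. Of 14555 cells, 11024 fell into the 5 classes and 2015 into none. Of the principal, clear, basal, stromal and macrophage cells, 87.5%, 91.4%, 90.4%, 95.8% and 88.1% lay in Leiden clusters of the same class.

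CPM had exact Poisson intervals, ratios exact conditional binomial intervals and shares Clopper-Pearson intervals. They cover counting error only. A count of 0 was set to 3 for bounds. All 8 members are named, up to 4 genes of each other list in order of summed UMIs, and the 3 genes with the highest Pearson r over the 15 groups for each member with at least 500 UMIs. Other genes named are markers or cluster leaders, chosen after their values were seen. The lists were other metallothioneins and Mtf1, other zinc exporters, other zinc importers, iron, copper and manganese transport, immediate early and heat shock, glucocorticoid response, and oxidative stress response. Alternatives were a looser (0.25 and 1.25) and a stricter gate (0.5 and 2), cells over 20% mitochondrial UMIs left out, 500 detected genes, TMM scaling, mitochondrial genes left out of the total, Leiden clusters, thinning, leaving out the top 1% of cells, and other UMI minimums. Promoters are RefSeq windows of GRCm38.p6, found for 6 of the 8 members. Genes annotated within or across Mt2, Slc30a1 and Slc39a8 are not rows of the matrix, and strand use in counting is not stated. The rule was tested on simulated data. Python 3.11.15, scanpy 1.11.5, igraph 0.11.9, scipy 1.17.1, R 4.3.3 and edgeR 4.0.16 (TMM factors only) were used.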

Additional observations from a re-analysis of the deposited data

How the results depend on the processing

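Of the 50 calls among 153 tested ratios of members, 47 remained with the looser gate and 47 with the stricter gate, 46 without cells of high mitochondrial share, 49 with 500 detected genes, 34 with TMM factors, 46 with mitochondrial genes left out of the total, 43 with Leiden clusters, 34 after thinning to the smaller total, 41 without the top 1% of cells, 50 with no UMI minimum and 39 with a minimum of 200. All 50 remained when clusters 26, 29 and 31, led by haemoglobin, mitochondrial or ribosomal RNA genes, were left out, an alternative added after seeing the data. Cluster 30, also led by haemoglobin genes, was kept there, and 1100 of its 1199 cells were gated principal. Leaving it out was not tried. No called ratio changed direction in any of the alternatives. TMM factors added 11 calls, of which 8 were lower calls against principal cells, 6 of them in clear cells. They lowered the ratio of every gene in the comparisons with principal cells. In principal cells the count for caput over corpus was 1 in place of 2 with the stricter gate, TMM factors or a minimum of 200 UMIs, and 3 without the top 1% of cells. For caput over cauda it was 1 in place of 2 after thinning and 3 with 500 detected genes, and for corpus over cauda 1 in place of 2 after thinning, without the top 1% of cells or with a minimum of 200 UMIs. For basal over principal cells 8 of 13 calls were made after thinning, for stromal over principal cells 6 in place of 10 with TMM factors, and for macrophages over principal cells 2 in place of 4 after thinning, without the top 1% of cells or with a minimum of 200 UMIs. The share of principal cells with an Mt1 UMI at 1000, 500 and 2000 UMIs a cell was 68.8%, 48.1% and 88.0% in caput, 77.8%, 55.4% and 92.5% in corpus and 69.6%, 53.6% and 84.5% in cauda. Thinning and a higher minimum leave fewer UMIs, and for other lost calls the cause was not tested. No paired analysis was possible because each region has 1 library. Depth limits the transporters most: in cauda clear and basal cells 1 to 20 UMIs stood behind each transporter but Slc39a4 in clear cells, which had none.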

Other observations

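The gate gave 89 ciliated cells in caput, 1 in corpus and none in cauda. Their Mt3 level was 673 CPM, against 13.6 CPM in caput principal cells, and they held 45.1% of all caput Mt3 UMIs. Their Mt1 level was 4292 CPM (4138 to 4450) and their Mt2 level 547 CPM (493 to 606), against 1524 and 227 CPM in caput principal cells. Slc39a4, otherwise a gene of basal cells, was at 80.5 CPM (60.6 to 105) in ciliated cells, against 7.77 CPM in caput principal cells, and a UMI was seen in 33.7% of them. The summed immediate early and heat shock level of ciliated cells was 15874 CPM, against 6328 CPM in caput principal cells, and its part in these levels was not tested. Endothelial cells of the caput had the highest Slc30a1 level of the caput classes with at least 50 cells, 43.0 CPM (32.7 to 55.5) against 6.64 CPM in principal cells, and the lowest Mt1 level, 521 CPM.

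Lists outside zinc were counted over the 12 comparisons of a class with principal cells. The immediate early and heat shock list had 139 of 168 tested ratios higher and none lower, with medians of 1.01 to 2.05 on the log2 scale, where all genes tested had medians of -0.08 to 0.49, and 98 higher and none lower with TMM factors. The glucocorticoid list had 70 of 114 higher and 6 lower (60 and 11 with TMM factors), the oxidative stress list 31 of 105 higher and 28 lower (18 and 39), and the list of iron, copper and manganese transport 10 of 90 higher and 25 lower (5 and 45). In these comparisons 22.4% to 46.7% of all genes tested passed the rule with plain totals. No such share was taken with TMM factors, which lowered the ratio of every gene there. Between regions these lists, in the same order, had 10 of 210 higher and 12 lower, 6 of 136 higher and 9 lower, 6 of 102 higher and 14 lower, and 3 of 92 higher and 4 lower. The list of Mt3, Mt4 and Mtf1 had 3 of 11 higher and none lower. Over all genes 9053 of 111814 tested ratios between regions were higher and 8617 lower, and 5.55% to 34.5% passed in the single comparisons.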
